A study of Homo sapiens with 10 samples.

Results

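Regions of open chromatin that every library called and that lay at the ends of genes were described in DLD-1, an established cell line from a human colorectal adenocarcinoma. Intervals from the 6 libraries of a GATA6 degron line were merged into 120452 regions on chromosomes 1 to 22 and X. Of these, 15902 (13.2%) lay within 1000 bp of either end of a protein-coding gene, and 45302 were called by all 10 libraries of the series with an overlap of at least 1 bp. The 11305 regions that met both conditions are called constitutive gene-end regions here. They made up 9.39% of the merged regions and 25.0% of those called by all 10 libraries. They were chosen by the peak calls themselves, so their presence in every library is the rule and not a result.

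Omni-ATAC, which tags accessible DNA with adapters carried by a transposase, had been run on 50000 viable cells and read as pairs of 150 nt. The degron line, with genotype GATA6-AID-IAA7, carries GATA6 with a degron tag, through which auxin (IAA, used at 500 µM) sends the protein to the proteasome. It gave the groups AID_aux (12 h of auxin), AID_wash (treatment labelled as wash, with a time label that has no unit) and AID_ctrl (labelled with auxin and a time of 0 h, titled as control, and read as untreated). The other groups were a GATA6 knockout made with CRISPR/Cas9 (KO) and unedited DLD-1 cells (WT). All 5 groups have 2 libraries. The protocol speaks of positive degron clones, without saying how many were used, and no label tells if the replicates were grown apart, so their spread may be technical.

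Promoters are stretches at the start of genes where transcription factors and the general transcription machinery keep nucleosomes away, and they are among the most accessible parts of the genome in any cell type. Many promoters of widely used genes overlap CpG islands, which are rich in G and C and in the dinucleotide CpG. GATA6 is a zinc-finger transcription factor of endoderm and gut epithelium that is known to bind mostly at distal enhancers. The regions described here were called in every group, the knockout among them, by the rule that chose them.

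The first 6 promoter stretches show what stood at the upper and the lower end of enrichment. The fold enrichment of a region in a library is the highest ratio the authors listed for any summit in it, read as the signal over the peak caller's background. Each ratio is the authors' own value within its list. PCCB encodes a subunit of propionyl-CoA carboxylase, CLDN12 a claudin of cell junctions and ZNF708 a zinc-finger protein. Their regions had median percentiles of 99.8 to 99.9 among the 62170 regions called in all 6 degron libraries. ZFP36, which directs messenger RNA decay, ID2, an inhibitor of helix-loop-helix factors, and RNF208, a RING-finger protein, lay at the bottom of this choice, at the 0.139, 0.0965 and 0.0241 percentiles in that order. Outside it, the far-end regions of SLC35B2 and FOXA1 also lay below ZFP36, at the 0.0249 and 0.120 percentiles. So did a region at H2AC17 with a start within reach, at 0.105, and one at CD151, of unknown strand, at 0.104. The sequences are from RefSeq (GRCh38.p14), 5′ to 3′ on the strand of the gene, from 100 bases before the annotated start and 50 bases from it on, with every CpG in capitals.
PCCB, chr3:136250240-136250389, plus strand: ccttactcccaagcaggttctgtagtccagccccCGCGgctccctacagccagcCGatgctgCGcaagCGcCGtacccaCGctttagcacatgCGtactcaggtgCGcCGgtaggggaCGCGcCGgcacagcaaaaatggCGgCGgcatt
CLDN12, chr7:90403361-90403510, plus strand: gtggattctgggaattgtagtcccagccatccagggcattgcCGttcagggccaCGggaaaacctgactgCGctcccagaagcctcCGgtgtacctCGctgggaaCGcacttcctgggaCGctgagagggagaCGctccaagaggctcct
ZNF708, chr19:21329361-21329510, minus strand: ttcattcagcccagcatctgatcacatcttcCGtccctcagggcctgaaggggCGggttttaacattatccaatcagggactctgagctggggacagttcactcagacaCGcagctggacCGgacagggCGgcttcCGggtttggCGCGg
ZFP36, chr19:39406747-39406896, plus strand: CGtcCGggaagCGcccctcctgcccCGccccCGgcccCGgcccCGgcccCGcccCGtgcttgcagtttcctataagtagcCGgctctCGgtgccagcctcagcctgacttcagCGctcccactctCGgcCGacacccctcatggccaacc
ID2, chr2:8681956-8682105, plus strand: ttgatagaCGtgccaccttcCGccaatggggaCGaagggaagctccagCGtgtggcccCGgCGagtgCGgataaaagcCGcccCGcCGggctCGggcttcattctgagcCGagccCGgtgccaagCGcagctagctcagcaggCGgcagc
RNF208, chr9:137223359-137223508, minus strand: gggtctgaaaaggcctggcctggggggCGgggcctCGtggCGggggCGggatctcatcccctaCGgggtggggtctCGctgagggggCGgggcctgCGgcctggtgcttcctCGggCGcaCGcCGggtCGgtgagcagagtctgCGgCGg

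The G and C share of these 150 bases was 64.7% at PCCB, 61.3% at CLDN12 and 58.7% at ZNF708. It was 72.7% at ZFP36, 67.3% at ID2 and 76.0% at RNF208. The stretches at the low end were thus the ones richer in G and C, and the larger sets below show the same order. The regions of these stretches were picked by their enrichment, so these levels are a description. At PCCB the fold enrichment was 21.1 and 21.2 in AID_aux, 19.3 and 18.7 in AID_wash, and 21.2 and 20.9 in AID_ctrl. At ID2 it was 2.77 and 2.18 in AID_aux, 2.17 and 2.64 in AID_wash, and 2.33 and 2.07 in AID_ctrl. The groups overlapped at ID2. At PCCB both AID_wash libraries lay below the other 4 as listed, but not after each list was centred on its median.

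The nearest gene end lay inside 9676 of the 11305 regions (85.6%). Widths ran from 187 to 4557 bp with a median of 1473 bp. At the 1000 bp limit, the 141 regions lying 901 to 1000 bp from an end had a median fold enrichment of 7.63 and 7.18 in AID_aux, 7.01 and 7.05 in AID_wash, and 6.91 and 7.36 in AID_ctrl. The 164 regions called by all 10 libraries that lay 1001 to 1100 bp away had medians of 7.44 and 7.51 in AID_aux, 7.0 and 7.20 in AID_wash, and 7.24 and 7.23 in AID_ctrl. The limit therefore fell between regions of like enrichment. Most regions served a single gene: 9106 had 1 protein-coding gene within reach, 2081 had 2, and 118 had 3 or more. POC1B, a centriole gene, shared its region with 3 further gene names.

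RefSeq's promoter table gave the strand of 15813 of 19974 protein-coding genes, which allowed starts to be told from ends. A gene start lay within reach of 8478 regions, only the far end of a gene within reach of 885, and for 1942 no strand-annotated start was within reach but a gene of unknown strand was. At 1052 regions, genes started in both directions. Regions with a start were long, with a median of 1512.5 bp, and those with starts in both directions longer still, at 1637.5 bp. A longer region reaches starts in both directions more easily, and whether the genes point away from each other was not checked. Regions at the far end only had a median of 1148 bp, near the 1145 bp of the 33997 regions that all 10 libraries called farther than 1000 bp from any gene end. These are called distal constitutive regions below, although 17220 of them (50.7%) overlapped a gene body and 2500 (7.35%) lay within 1000 bp of a start in the promoter table.

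**Figure D1:**
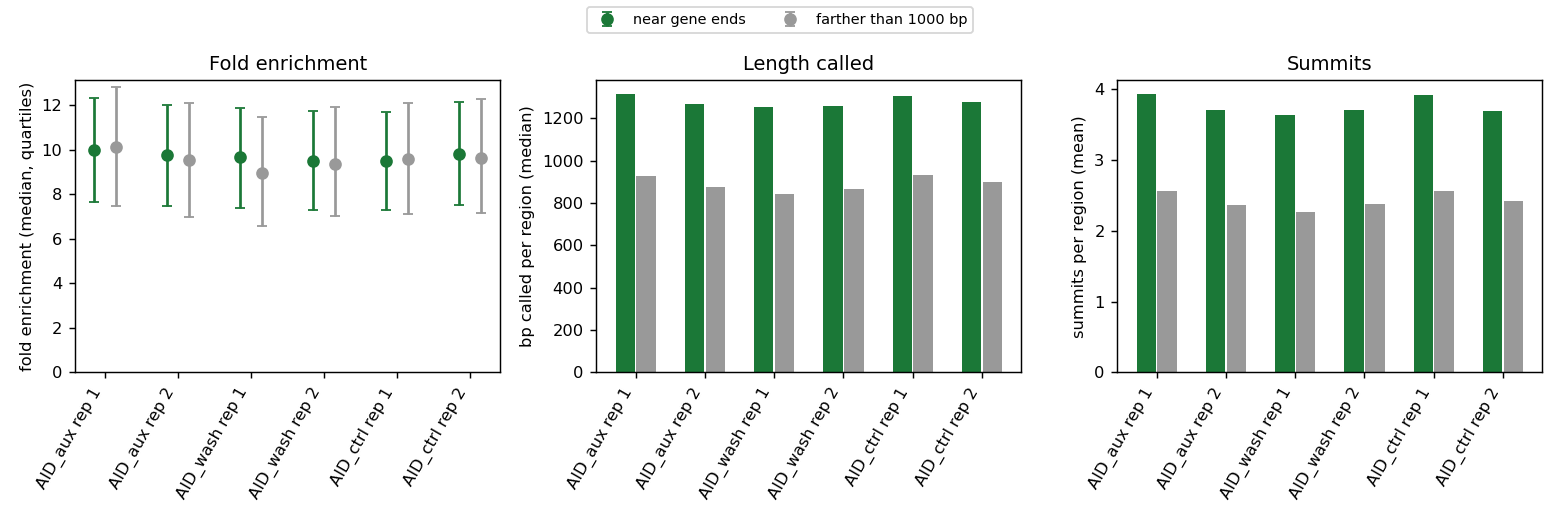
Fold enrichment, length called and number of summits of the 11305 constitutive gene-end regions (green) and the 33997 distal constitutive regions (grey) in each of the 6 degron libraries. Points are medians with quartiles, bars are medians (length, bp) or means (summits). Enrichment medians lie between 8.96 and 10.1 in both sets, whereas length and summit number are higher near gene ends in all 6 libraries.

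Constitutive gene-end regions were longer than distal ones, whereas the median fold enrichment of both sets was similar. Their median fold enrichment was 10.0 and 9.75 in AID_aux, 9.67 and 9.48 in AID_wash, and 9.47 and 9.79 in AID_ctrl. Distal constitutive regions had 10.1 and 9.53 in AID_aux, 8.96 and 9.38 in AID_wash, and 9.56 and 9.64 in AID_ctrl. The difference of medians averaged 0.03 ± 0.05 on the log2 scale (SD, n = 6 libraries) and was positive in 4 of 6. An exact permutation test over libraries (sign flips, two-sided, smallest possible p 0.03125) gave p = 0.1875. The direction was not stable. The difference was -0.13 when the summits of a region were averaged and -0.04 within 3000 bp of a gene end. It was 0.05 within 500 bp and 0.10 for regions of 500 to 1500 bp. In the latter, the length called was still 217 bp greater near gene ends. By the width classes given below, gene-end medians lay below distal ones in each library, except from 1000 to 1499 bp, where they lay above. In AID_aux replicate 1 they were 7.74, against 8.80, from 500 to 999 bp, and 11.4, against 11.2, from 1000 to 1499 bp. Differences within width classes were not tested.

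Length and complexity differed in every library. The length called per gene-end region was 1313 and 1267 bp in AID_aux, 1251 and 1259 bp in AID_wash, and 1303 and 1275 bp in AID_ctrl. The distal medians were 929 and 876 bp in AID_aux, 844 and 865 bp in AID_wash, and 932 and 900 bp in AID_ctrl. The lowest gene-end value exceeded the highest distal value, with a mean difference of 387 ± 13.2 bp (SD, 6 of 6 libraries, exact permutation p = 0.03125). Gene-end regions held 3.64 to 3.93 summits each, against 2.27 to 2.57 in distal regions (6 of 6 libraries, exact permutation p = 0.03125). Distance was counted from the edge of a region, so a longer region reaches a gene end more easily. Length and summit number are therefore linked to the choice of members, and their p-values are not independent support. The median −log10 p of the strongest summit ran from 48.4 to 69.3 near gene ends, against 29.1 to 46.1 in distal regions (6 of 6 libraries, exact permutation p = 0.03125). The strongest of several summits is the value of a region, so summit number enters this measure. Its p-value is thus not independent support either.

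Gene-end regions also spanned a narrower range of enrichment than distal ones. Their 10th percentile was higher in 6 of 6 libraries, by 0.08 ± 0.05 on the log2 scale (SD, exact permutation p = 0.03125). Their 90th percentile was lower in 6 of 6 libraries, with a mean difference of -0.04 ± 0.02 (SD, exact permutation p = 0.03125). The sets differ in width, with 12.8% of gene-end regions under 1000 bp, against 35.9% of distal ones. From 500 to 999 bp the lower quartile near gene ends was below the distal one in each library, at 5.28, against 6.43, in AID_aux replicate 1. From 1000 to 1499 bp it was above in each. The 10th and 90th percentiles were not compared at equal width. With the spread given below, 7 measures were tested over the same 6 libraries, and the Benjamini-Hochberg adjusted value of each exact permutation p of 0.03125 was 0.0365. The adjustment leaves out that length and summit number are linked to the choice of members, and the spread values to each other. It also leaves out that summit number enters the −log10 p of the strongest summit. The lists hold no read counts, so depth is unknown and these tests cover the spread between libraries.

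Among gene-end regions, enrichment differed with position. Those with a start had a median percentile of 62.9 among the 62170 regions called in all 6 degron libraries, and those with starts in both directions 67.3. Regions at the far end only had a median percentile of 47.9. Their median fold enrichment was 8.78 and 8.18 in AID_aux, 7.92 and 8.09 in AID_wash, and 8.41 and 8.40 in AID_ctrl. Regions with a start had 10.2 and 9.94 in AID_aux, 9.90 and 9.64 in AID_wash, and 9.66 and 9.98 in AID_ctrl, above the far-end medians in each library. Of the 885 far-end regions, 64 (7.23%) also lay within 1000 bp of another start in the promoter table.

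The longest regions were not the most enriched. UBTF, a factor of ribosomal RNA transcription, had the longest one at 4557 bp and a median percentile of 6.72. Its fold enrichment was 4.76 and 4.30 in AID_aux, 4.01 and 4.14 in AID_wash, and 4.43 and 3.71 in AID_ctrl. MAN1A1, a Golgi mannosidase, had 3704 bp at the 52.6 percentile, and E2F3, a cell-cycle transcription factor, 3581 bp at the 36.4 percentile. At the other extreme, TUBGCP3, a part of the gamma-tubulin complex, and MRPS17, a protein of the small mitochondrial ribosomal subunit, reached the 99.7 and 99.8 percentiles with 1154 and 1174 bp. Over width classes, the median percentile of gene-end regions was 11.0 under 500 bp, 37.8 from 500 to 999 bp, 72.9 from 1000 to 1499 bp, 63.8 from 1500 to 1999 bp and 43.7 at 2000 bp or more. The highest medians thus stood at middle widths.

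Of 19974 protein-coding genes, 12054 (60.3%) had a constitutive gene-end region. The genes of shared cell machinery were nearly complete. All 12 subunits of RNA polymerase II, all 8 subunits of the chaperonin CCT, all 29 spliceosome genes and all 14 mitotic genes had one. Of 77 mitochondrial ribosomal proteins 75 had one, of 87 ribosomal proteins 83, of 45 genes of respiratory complex I 43, and of 39 proteasome subunits 36. High shares were not particular to these lists. All 15 immediate early genes, all 12 YAP targets and all 14 looping factors had one, and 12 of 15 WNT targets. Among the machinery genes without one, PSMA6, MRPL44 and NDUFA5 each held at least 1 region called by all 10 libraries inside the gene, away from its outermost ends. Over all 7920 genes without a gene-end region, 2350 (29.7%) held such a region inside.

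**Figure D2:**
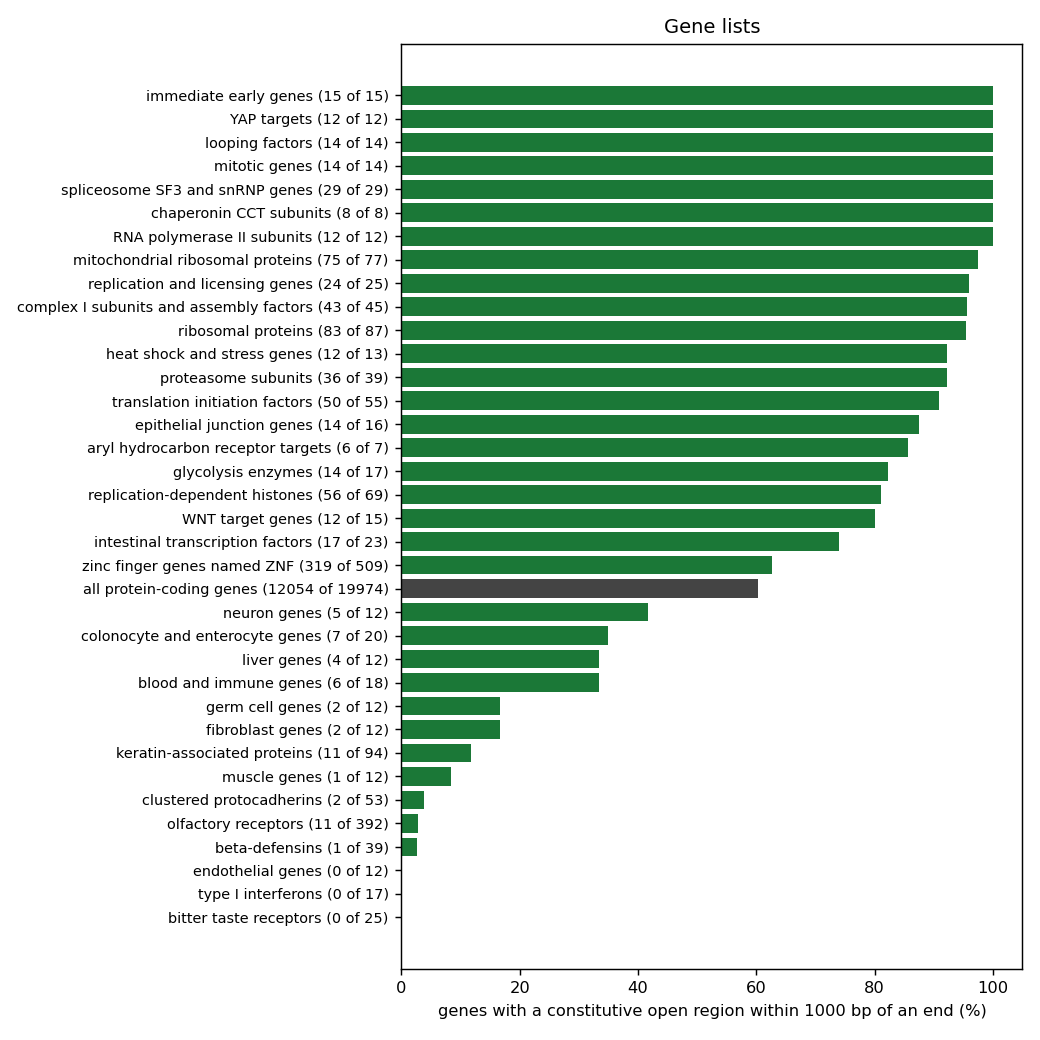
Share of genes in each of 35 gene lists, and of all 19974 protein-coding genes (dark bar, 60.3%), that had a region called by all 10 libraries within 1000 bp of either end. Ribosomal, proteasome, complex I, translation initiation, polymerase, chaperonin, spliceosome, replication and mitotic genes stand at or above 90.9%. Immediate early genes, YAP targets and looping factors stand at 100%. The receptor lists and the lists of other cell types stand below the dark bar.

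Large families that act in specialised cells were mostly absent. Of 392 olfactory receptors 11 had a constitutive gene-end region, of 53 clustered protocadherins 2, of 39 beta-defensins 1, and of 25 bitter taste receptors and 17 type I interferons 0. Among markers of other cell types, 0 of 12 endothelial genes, 1 of 12 muscle genes, 2 of 12 fibroblast genes, 2 of 12 germ cell genes, 4 of 12 liver genes, 5 of 12 neuron genes and 6 of 18 blood and immune genes had one. Of the genes without one, 5 of 12 endothelial and 4 of 12 blood and immune genes held a region called by all 10 libraries inside. So did 2 of 10 fibroblast, 1 of 8 liver and 1 of 7 neuron genes, but 0 of 11 muscle and 0 of 10 germ cell genes. A region near such a gene can belong to a neighbour or to an element within reach, and its presence says nothing about the gene's transcription. By chromosome, the share of genes with a region was lowest on X, at 40.8%, and highest on chromosome 16, at 68.1%.

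The line's own lineage was represented in part. Of 23 intestinal transcription factors 17 had a constitutive gene-end region, and of 16 epithelial junction genes 14, but of 20 genes of mature colonocytes and enterocytes only 7. HNF4A, a nuclear receptor of gut and liver epithelium, stood at the 80.5 percentile, with a fold enrichment of 11.3 and 11.0 in AID_aux, 11.0 and 12.3 in AID_wash, and 13.1 and 14.1 in AID_ctrl. Both AID_aux libraries lay below both AID_ctrl libraries, with a mean centred log2 difference of -0.31. CDX2, a master regulator of intestinal identity, stood at the 4.63 percentile, with 4.61 and 4.02 in AID_aux, 4.40 and 3.54 in AID_wash, and 3.73 and 3.79 in AID_ctrl. At CDX2 the order was the opposite, with both AID_aux values above both AID_ctrl values. GATA4, GATA5, KLF5, EHF and ATOH1 were among those with none, although GATA4, KLF5 and EHF each held at least 1 region called by all 10 libraries inside the gene. The villin gene VIL1, the guanylin gene GUCA2A and the carbonic anhydrase gene CA2 were among the 7 colonocyte genes with one, and FABP1, SI and AQP8 were not. Of the 13 colonocyte genes without one, 1, AQP8, held a region called by all 10 libraries inside the gene.

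The degron's target gene itself carried a constitutive region of 2198 bp, from 22168382 to 22170579 on chromosome 18, over the annotated start of GATA6. Its fold enrichment was 5.08 and 4.56 in AID_aux, 5.37 and 5.20 in AID_wash, and 4.19 and 5.06 in AID_ctrl. The AID_aux and AID_ctrl values overlapped, with a mean centred log2 difference of 0.04, and its median percentile was 12.3. These lists hold no protein measurement, so removal of GATA6 by auxin cannot be checked in them. Its promoter stretch, printed as above, held 15 CpG.
GATA6, chr18:22169489-22169638, plus strand: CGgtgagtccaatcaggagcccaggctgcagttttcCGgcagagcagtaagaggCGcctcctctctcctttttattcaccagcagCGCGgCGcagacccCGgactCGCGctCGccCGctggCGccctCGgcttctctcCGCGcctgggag

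Gene groups differed in how enriched their regions were. Mitotic genes had a median percentile of 80.1 over 14 regions, led by the kinase gene CDK1 at 95.4 and the cyclin gene CCNB1 at 94.3. Zinc-finger genes named ZNF had 78.7 over 333 regions, replication and licensing genes 77.6 over 26, and spliceosome genes 77.3 over 31, against 61.1 over all 11305. Ribosomal proteins were lower, at 41.1 over 106 regions, with RPL11 at 95.7 as the highest. WNT target genes had 20.4 over 16 regions, YAP targets 26.7 over 15 and immediate early genes, which respond to stimuli within minutes, 10.1 over 25. The ubiquitin ligase gene RNF43 and the stem cell receptor gene LGR5, both WNT targets, stood at 47.2 and 29.6, and the feedback inhibitor AXIN2 at 2.50.

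Immediate early genes ranked below the median of gene-end regions by both measures of a summit, and far lower by ratio than by −log10 p. The 25 regions of these 15 genes had a median percentile of 52.0 by −log10 p and 10.1 by fold enrichment, against 76.0 and 61.1 over all gene-end regions. Ribosomal protein regions had 77.6 by −log10 p and 41.1 by fold enrichment. FOS had a region of 2327 bp with a fold enrichment of 8.04 and 7.42 in AID_aux, 7.81 and 6.81 in AID_wash, and 7.86 and 7.99 in AID_ctrl. JUNB, at 834 bp, had 3.97 and 4.29 in AID_aux, 3.78 and 3.34 in AID_wash, and 4.54 and 3.90 in AID_ctrl. In neither gene did AID_aux stand apart from AID_ctrl. Where a gene had several regions, the one with the highest percentile is given.

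Promoter letters were read in RefSeq's windows of 300 bases, from 250 before the start to 50 after it, for the 13793 genes whose window lay at the gene's own outer end. Of these genes, 8459 had a constitutive region within 1000 bp of the start, called a region at the start here, and 5334 did not. The region overlapped the window itself in 8032 of the 8459. Median G and C share was 65.3% with a region, against 56.0% without. The median number of CpG was 27, against 7, and the ratio of observed to expected CpG was 0.853, against 0.363.

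In these windows, 11 motifs were searched by exact letters on both strands, each counted once per window and apart from the others even where matches share bases. The GC box GGGCGG, bound by SP and KLF factors, stood in 71.9% of promoters with a constitutive region, against 37.3% without and 58.5% of all 13793. The ETS-factor motif CCGGAAG stood in 21.3%, against 3.88% without and 14.6% of all. CCAAT, bound by NF-Y, was nearly even at 38.3%, against 35.2% without and 37.1% of all. NRF1's GCATGCGC stood in 6.11%, against 1.82% without and 4.45% of all, and TGACGTCA of CREB and ATF factors in 3.44%, against 1.52% without and 2.70% of all. YY1's AAGATGGCG stood in 4.39%, against 0.469% without and 2.87% of all.

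The TATA box, the GATA-factor motif and the AP-1 motif were rarer where a constitutive region stood. The TATA box TATAAA was found in 5.50%, against 17.2% without and 10.0% of all. The GATA-factor motif AGATAA was found in 4.44%, against 12.8% without and 7.69% of all. The AP-1 motif TGACTCA was found in 2.87%, against 4.87% without and 3.65% of all. CACGTG, bound by MYC and USF factors, was found in 10.6%, against 6.32% without and 8.95% of all, and TCTCGCGAG in 1.62%, against 0.262% without and 1.09% of all. G and C share moved with the presence of a region, as given above, and its part in these shares was not tested.

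For several of the motifs, the match in the most enriched region is shown with its flanks in 36 bases, RefSeq GRCh38.p14, on the strand of the gene, the motif in capitals. A capital stretch that reads as the reverse complement is a match on the other strand. Each match lies inside the called region and is a run of letters, not a shown binding site. TBC1D22B encodes a Rab GTPase-activating protein, THG1L a transfer RNA enzyme and ZNF543 a zinc-finger protein.
ZNF708, GC box, chr19:21329437-21329472, minus strand: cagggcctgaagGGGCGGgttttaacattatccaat
ZNF708, ETS, chr19:21329361-21329396, minus strand: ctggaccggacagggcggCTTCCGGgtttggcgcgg
CLDN12, CCAAT, chr7:90403242-90403277, plus strand: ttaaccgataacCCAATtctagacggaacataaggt
ZNF543, CREB and ATF, chr19:57320466-57320501, plus strand: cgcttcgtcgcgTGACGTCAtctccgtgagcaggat
TBC1D22B, YY1, chr6:37257766-37257801, plus strand: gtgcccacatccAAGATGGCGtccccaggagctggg
THG1L, GATA, chr5:157731194-157731229, plus strand: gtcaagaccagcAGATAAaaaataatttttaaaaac

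Within constitutive gene-end regions, letters also went with enrichment. The 8459 promoters were divided into 4 sets of equal size by the fold-enrichment percentile of their region, at 44.1, 64.4 and 81.2. From the lowest set to the highest, CCGGAAG stood in 13.3%, 18.4%, 24.2% and 29.4% of promoters, and CCAAT in 31.8%, 35.8%, 38.8% and 46.9%. The GC box went the other way, with 75.5%, 74.0%, 71.7% and 66.3%, as did the median G and C share, with 69.0%, 67.0%, 64.7% and 62.3%. TATAAA stood in 7.80%, 4.73%, 5.77% and 3.69%. The division was chosen after the data were seen, regions are not replicates, and no test was made.

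**Figure D3:**
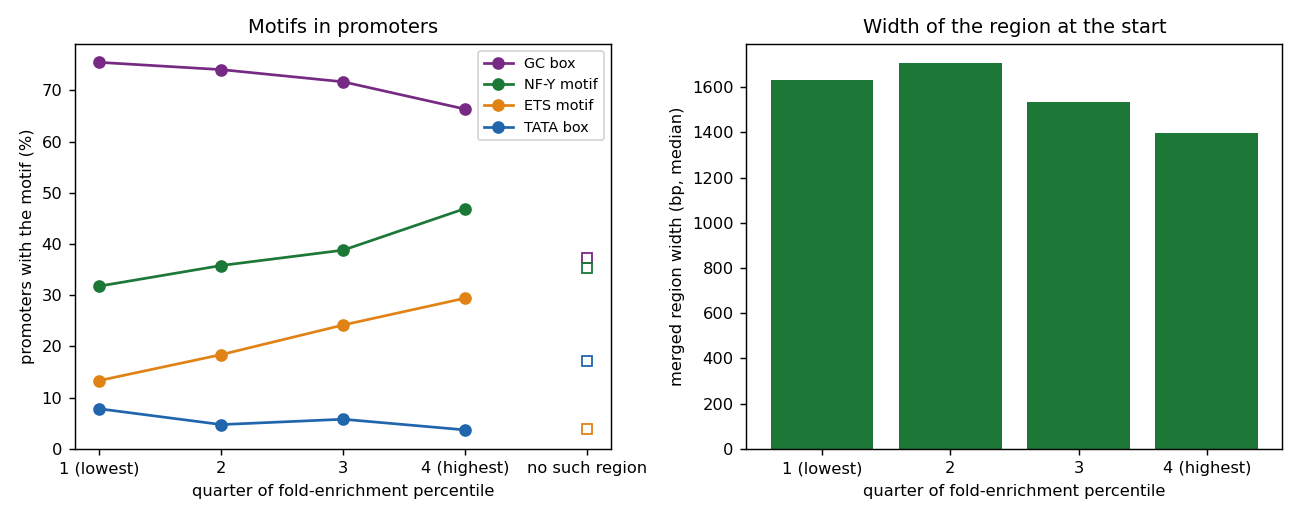
Share of promoters with each motif (left, %) and median width of the region at the start (right, bp), in 4 sets of equal size by fold-enrichment percentile, from lowest to highest. Open squares give promoters of genes with no constitutive region at the start. The ETS motif reaches 29.4% and CCAAT 46.9% in the highest set, whereas the GC box and the width of the region are lowest there, at 66.3% and 1398 bp.

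Levels at the members were close across the degron groups. For each list, log2 enrichment was centred on the median of the 62170 regions called in all 6 degron libraries, whose log2 median itself differed from the mean of the lists by 0.09 in AID_aux replicate 1 and -0.10 in AID_wash replicate 1. The centred values of a gene-end region spanned a median of 0.38 over the 6 libraries, against 0.48 in distal constitutive regions. In 8534 regions (75.5%) the span was under 0.5, and in 84 (0.743%) it exceeded 1. The median distance of a library from the mean of the 6 was 0.09 to 0.13 in gene-end regions, against 0.11 to 0.14 in distal regions. It was lower in 6 of 6 libraries, with a mean difference of -0.02 (exact permutation p = 0.03125). Among regions with 4 or more summits the difference was -0.004, lower in 5 of 6 libraries (exact permutation p = 0.09375). The highest of several summits is the value of a region, so summit number enters the measure, and this spread was measured after the data were seen. Each distance was taken from the mean of the same 6 libraries, so the 6 values are linked. The exact permutation test of spread treats them as independent, so its p is no firm support.

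A region was counted as lower or higher in a comparison when both libraries of a group lay beyond both of the other and the mean centred log2 difference was at least 0.5. With 2 libraries against 2, an exact permutation test cannot go below p = 0.33, so the counts are descriptions. In AID_aux against AID_ctrl, 48 of 11305 gene-end regions (0.425%) were lower, where 3.36% of all 62170 regions were. A further 50 (0.442%) were higher, where 2.51% of all were. Both shares lay under the background, and in distal constitutive regions 3.05% were lower and 2.27% higher. Dropping any 1 of these 4 libraries gave higher counts, of 82 to 112 lower and 83 to 125 higher regions. The median difference over gene-end regions was 0.01, as it was over all 62170. Leaving out AID_aux replicate 2 or AID_ctrl replicate 1 turned its sign, to -0.02 in either case, and in bulk libraries fewer cells and less signal per cell cannot be told apart.

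In AID_aux against AID_ctrl, the share near gene ends was also lower at like size and like enrichment. Among regions with 1 summit, 6.31% of gene-end regions were counted in either direction, against 9.15% of distal ones. With 4 or more summits the shares were 0.142%, against 1.06%, but in AID_wash against AID_ctrl they were 0.195%, against 0.192%. In that comparison regions of 1500 bp or more were counted higher in 0.260% near gene ends, against 0.229% of distal ones. Among regions of 1000 to 1499 bp between the 60th and 80th percentiles, the shares in AID_aux against AID_ctrl were 0.315%, against 4.60%. Within gene-end regions, far-end regions were counted lower in 1.69% and higher in 1.81%, against 0.295% and 0.224% of regions with a start. Shares by summit number and width were compared after the data were seen.

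**Figure D4:**
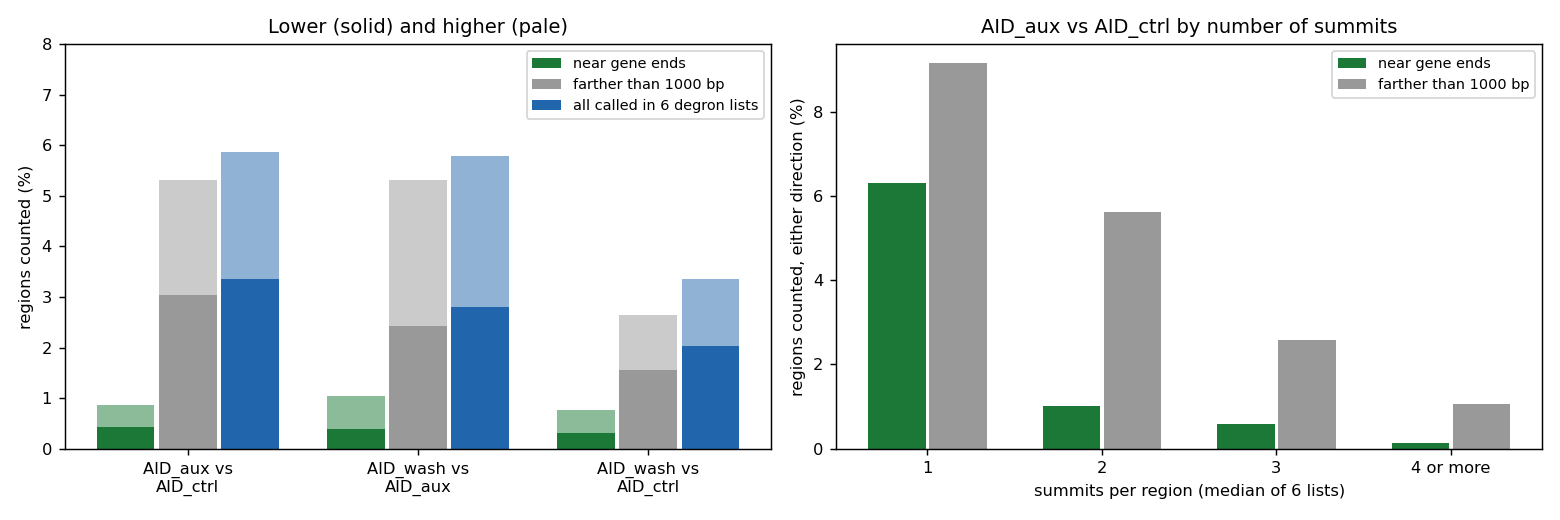
Left, share of regions (%) counted as lower (solid) or higher (pale) in each comparison, for gene-end, distal constitutive and all regions called in the 6 degron libraries. Right, share counted in either direction in AID_aux against AID_ctrl by number of summits, from 6.31% against 9.15% with 1 summit to 0.142% against 1.06% with 4 or more.

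Of the 8 largest falls in AID_aux, 6 were at regions that reach only the far end of a gene. DUSP13B, a dual-specificity phosphatase gene, had a fold enrichment of 3.95 and 4.58 in AID_aux, 5.47 and 7.44 in AID_wash, and 9.01 and 9.48 in AID_ctrl. At the zinc-finger gene ZNF892 it was 5.59 and 3.93 in AID_aux, 9.69 and 8.87 in AID_wash, and 9.89 and 9.33 in AID_ctrl. The AID_aux libraries stood below all 4 others at both genes, with mean log2 differences from AID_ctrl of -1.14 and -1.06. SNAP25, which encodes a SNARE protein of vesicle fusion, had 9.01 and 7.09 in AID_aux, 15.6 and 15.2 in AID_wash, and 14.8 and 14.3 in AID_ctrl, a difference from AID_ctrl of -0.89. It is a neuronal marker, and 5 of the 12 neuron genes had a region. PRDM1, which encodes the transcriptional repressor BLIMP1, had 4.39 and 3.77 in AID_aux, 7.12 and 8.66 in AID_wash, and 6.38 and 7.03 in AID_ctrl, a difference of -0.74.

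DDX59, an RNA helicase gene, SCPPPQ1 and SLC15A2, a peptide transporter gene, were the other far-end regions among these 8, and the first of them differed by -1.01 and the second by -0.78. The gene with the largest fall at a known start was ADD3, which encodes an adducin of the membrane skeleton. Its fold enrichment was 5.08 and 5.34 in AID_aux, 7.87 and 6.46 in AID_wash, and 8.32 and 8.97 in AID_ctrl, a difference of -0.75. Its promoter stretch was low in G and C, at 42.0%, and held 1 CpG. The largest rise was at FBXO27, an F-box gene, with 9.17 and 8.25 in AID_aux, 9.60 and 3.93 in AID_wash, and 5.39 and 3.98 in AID_ctrl, a difference of 0.89. The AID_wash libraries disagreed there, and its promoter stretch held 11 CpG.
ADD3, chr10:109996273-109996422, plus strand: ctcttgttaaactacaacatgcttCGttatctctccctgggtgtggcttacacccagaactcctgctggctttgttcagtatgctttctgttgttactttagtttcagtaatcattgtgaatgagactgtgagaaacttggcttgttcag
FBXO27, chr19:39032500-39032649, minus strand: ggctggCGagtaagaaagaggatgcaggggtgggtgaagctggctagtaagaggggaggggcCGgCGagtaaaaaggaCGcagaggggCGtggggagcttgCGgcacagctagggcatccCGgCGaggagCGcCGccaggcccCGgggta

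**Figure D5:**
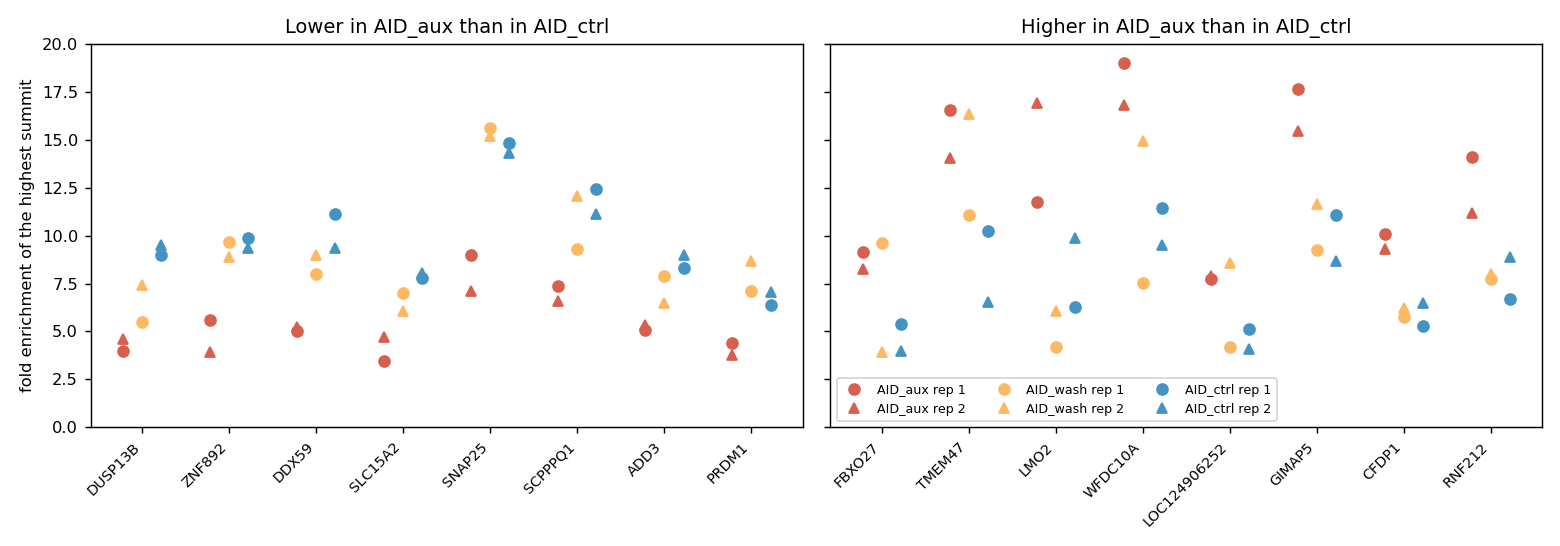
Fold enrichment of the highest summit in each degron library for the 8 gene-end regions with the largest fall (left) and the 8 with the largest rise (right) in AID_aux against AID_ctrl, named by the nearest gene. In each gene both AID_aux points lie on one side of both AID_ctrl points, as the choice of these regions requires.

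Other rises in AID_aux were at TMEM47, LMO2, WFDC10A, LOC124906252, GIMAP5, CFDP1 and RNF212, with differences from 0.88 down to 0.68. TMEM47, a membrane protein gene, had 16.5 and 14.1 in AID_aux, 11.1 and 16.3 in AID_wash, and 10.2 and 6.51 in AID_ctrl. LMO2, which encodes a LIM-only cofactor of blood cell development, had a region of 488 bp with 11.7 and 16.9 in AID_aux, 4.21 and 6.09 in AID_wash, and 6.29 and 9.88 in AID_ctrl. At LMO2 the AID_aux libraries lay above the other 4, whereas at TMEM47 an AID_wash library lay between them. Of the gene lists, 0 of 24 regions of intestinal transcription factors, 0 of 16 regions of WNT targets and 0 of 25 regions of immediate early genes were counted in any of the 3 comparisons. Of all gene-end regions, 0.867% were counted in AID_aux against AID_ctrl, 1.05% in AID_wash against AID_aux and 0.761% in AID_wash against AID_ctrl, so lists of this size would hold few or no counted regions at that share. Among looping factors, the cohesin regulator PDS5B was counted lower in AID_aux, with a difference of -0.58, and among glycolysis genes LDHA, the lactate dehydrogenase gene, higher, with 0.59.

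In AID_wash against AID_aux, 44 gene-end regions (0.389%) were lower, where 2.8% of all 62170 were. A further 75 (0.663%) were higher, where 2.98% of all were. With any 1 of these 4 libraries left out, 88 to 112 were lower and 112 to 248 higher, the most without AID_wash replicate 2. Without centring the balance turned, with 102 lower and 26 higher. The largest rises were at ZNF892, PRDM1 and SNAP25, given above, with differences of 1.09, 1.05 and 1.05, followed by GPRIN2. This gene had 11.0 and 9.66 in AID_wash and 5.97 and 5.43 in AID_aux, with 8.26 and 8.59 in AID_ctrl. ATXN7L3, which encodes a part of the SAGA deubiquitinating module, had 4.91 and 4.28 in AID_wash and 3.05 and 2.48 in AID_aux, with 3.36 and 3.25 in AID_ctrl. The largest fall was at LMO2, at -1.37. HLA-DMB, which helps load peptides on class II molecules, had 5.89 and 4.45 in AID_wash and 11.4 and 8.25 in AID_aux, with 9.14 and 8.55 in AID_ctrl. NUPR1, a stress-response gene, had 6.73 and 7.37 in AID_wash and 14.1 and 11.9 in AID_aux, with 10.2 and 10.6 in AID_ctrl.

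In AID_wash against AID_ctrl, 36 gene-end regions (0.318%) were lower, where 2.03% of all 62170 were, and 50 (0.442%) were higher, where 1.33% of all were. With any 1 of these 4 libraries left out, 44 to 98 were lower and 86 to 233 higher, again the most without AID_wash replicate 2. Without centring the balance turned here too, with 76 lower and 15 higher. The 3 degron comparisons share libraries with each other, so their values are given side by side and not as independent. PLAC1, a placental gene, had 6.31 and 7.05 in AID_wash and 12.8 and 10.8 in AID_ctrl, with 7.06 and 7.87 in AID_aux. SRD5A2, a steroid reductase gene, had 6.48 and 6.68 in AID_wash and 11.7 and 12.5 in AID_ctrl, with 9.11 and 8.64 in AID_aux. The groups AID_wash and AID_ctrl were apart at both genes. NEK3, a kinase gene, had 6.27 and 6.76 in AID_wash and 4.43 and 3.85 in AID_ctrl, with 5.92 and 5.37 in AID_aux. MBNL3, a splicing regulator gene on chromosome X, had 7.50 and 9.51 in AID_wash and 5.34 and 5.80 in AID_ctrl, with 8.07 and 7.19 in AID_aux.

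The median over gene-end regions was 0.07 in AID_wash against AID_aux and 0.07 in AID_wash against AID_ctrl after centring, against 0.02 and 0.03 over all 62170 regions, but without centring it was -0.04 and -0.01. The centred medians of single libraries were 0.28 and 0.17 in AID_wash, 0.14 and 0.19 in AID_aux, and 0.13 and 0.17 in AID_ctrl. AID_wash replicate 1 alone stood apart, and without it the medians were 0.02 and 0.03. That library had the fewest peaks of the 6, 154150, where the others had 173167 to 198493. Gene-end regions held 25.4% of the length it called, where the others had 21.6% to 23.3%. The part of list length in the shift was not tested.

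The WT and KO lists hold windows of 500 bp with no score, so at gene-end regions only the number and position of windows can be compared. Windows covered 35.5% and 35.4% of the bases of gene-end regions in KO, against 37.9% and 37.5% in WT. The difference was -2.21 percentage points, with both KO libraries below both WT libraries. Distal constitutive regions had 44.2% and 44.3% in KO, against 45.7% and 44.9% in WT. More than 1 window stood in 8.08% and 8.02% of gene-end regions in KO, against 14.5% and 13.4% in WT, and in 5.61% and 5.66% of distal regions in KO, against 8.88% and 7.31% in WT. KO lists were also longer, with 130311 and 116231 windows on these chromosomes, against 92814 and 65939 in WT. Gene-end regions accordingly held 9.41% and 10.5% of KO windows, against 14.1% and 19.6% of WT windows. List length moved with genotype in all 4 libraries, and its part in the difference was not tested.

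The requirement of 10 calls fell unevenly on the libraries. Among the 15902 regions near a gene end, KO libraries called 91.1% and 89.1%, against 83.8% and 73.5% in WT. The degron libraries called 84.5% to 91.9%. Of 1158 such regions called by exactly 9 libraries, 1012 lacked WT replicate 2 and 19 lacked WT replicate 1. Without WT replicate 2 the rule would give 12317 regions. Over all merged regions, 71.1% of those near a gene end were called by all 10 libraries, against 32.5% of those farther away. A longer region both reaches a gene end and overlaps a call more easily, and these shares were not compared at equal width.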

How the data were processed

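Per the submitters' processing notes, the authors used Bowtie2 2.4.2, MACS2 2.1.1, Picard and Trim Galore 0.6.10 with build hg38. No source used here gives settings, the treatment of the transposase offset or blacklisted regions. Each line of the 6 deposited degron lists is a summit with a score, a fold enrichment ratio, and −log10 values for p and for q. In these deposited lists −log10 p started at 5.00, and 0.141% to 0.165% of the peak numbers up to the highest were absent. Only the positions of 500 bp windows stand in the 4 deposited lists of KO and WT. No file holds read counts, so depth and the precision it gives are unknown.

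Intervals on chromosomes 1 to 22 and X that overlapped or touched were merged. Gene ends were those of RefSeq protein-coding genes (GRCh38.p14, the outermost ends), and coordinates are counted from 1. Members, gene lists and tests were chosen with earlier results of these data known. The ratio of a region was its highest summit, in log2 and centred per list. Tests were exact sign-flip permutations over the 6 degron lists, with scripts tested on simulated data (Python 3.11.15, numpy 2.4.6, pandas 2.3.3, matplotlib 3.10.9). Genes were named by rule: the 12 regions with the highest and the 6 with the lowest percentile, the 8 largest falls and rises per comparison, the widest ranges, the 6 longest, the leading and missing genes of each list, and GATA6. From these a selection is printed, and FOS, JUNB, CDX2, RNF43, LGR5, AXIN2, PDS5B and LDHA were added after their values were seen. Except for GATA6, printed sequences came from regions at a start with a promoter window, outside chromosome 8. Some genes are not reported here. Alternatives covered distance, peak strength, overlap, summit choice, centring, fold threshold, region width, a replicate block and each library left out. Summit number, −log10 p, spread, counts at equal width or summit number, promoter sets by enrichment and regions inside genes were added after the data were seen.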

Additional observations from a re-analysis of the deposited data

How the results depend on the processing

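The difference in fold enrichment between gene-end and distal regions changed most with processing. It was 0.0495 within 500 bp of a gene end, 0.10 for regions of 500 to 1500 bp and 0.10 without WT replicate 2 (exact permutation p = 0.03125 each), but -0.0445 within 3000 bp and -0.0407 with −log10 p of 10 or more (exact permutation p = 0.0625 each), and -0.16 when the peaks of a library had to cover at least 0.5 of a region and -0.13 for the mean of summits (exact permutation p = 0.03125 each). The cover rule left 1099 regions. Leaving out each library in turn gave 0.0226 to 0.101 for enrichment, 386.4 to 437.5 bp for length and -0.0312 to -0.0215 for spread, where an exact permutation test over 5 libraries cannot go below p = 0.0625. It gave 11308 to 12317 regions, and -2.27 to -2.02 percentage points for window cover.

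Counts of lower and higher regions, first for AID_aux against AID_ctrl, then for AID_wash against AID_aux and last for AID_wash against AID_ctrl, were 48 and 50, 44 and 75, 36 and 50. They became 105 and 99, 83 and 131, 55 lower within 3000 bp; 28 and 21, 20 and 47, 19 and 22 with −log10 p of 10 or more; 96 higher, 139 higher, 55 and 109 with the mean of summits; 852 and 924, 513 and 1436, 465 and 1536 past 10 percentile ranks; 494 and 585, 321 and 998, 268 and 1103 at a difference of 0.25; and 3 and 0, 1 and 3, 0 and 0 at a difference of 1. Without centring the wash comparisons gave 102 and 26, 76 and 15, with medians of -0.0372 and -0.00817. With the replicate number as a block, the counts were 24 and 16, 15 and 29, 11 and 10. The numbers were not taken as a pairing, since deviations of same-numbered libraries from their group means correlated at 0.036, -0.033 and -0.012. Leaving out each library gave 48 to 112 and 50 to 125, 44 to 112 and 74 to 248, 36 to 98 and 43 to 233, with medians of -0.02 to 0.04, 0.02 to 0.11 and 0.03 to 0.12. A group of 1 library separates more easily by construction. Over 21 settings, which leave out the percentile ranks and the differences of 0.25 and 1, the share counted among all regions was 1.97 to 8.05, 1.56 to 6.46 and 1.10 to 5.52 times that among gene-end regions, lowest under the cover rule in each comparison.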
